A study of Homo sapiens with 12 samples.

Results

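The 9 interferon-stimulated genes described here are ISG15, OAS1, OAS3, IFI6, IFIT1, IFIT3, MX1, IRF1 and IRF9. They were taken as the rows of the count file with these gene names, and all 9 were found among its 58684 rows. Only 3 of them, ISG15, OAS3 and IRF1, had enough counts to be tested. The libraries came from stable lines of U2Os, cells of a human osteosarcoma, made with eIF4E-Flag or with its vector. The protein eIF4E initiates translation by binding the m7G cap of mRNAs, and the series title concerns its effect on how much of each transcript carries that cap. The 4 groups were Cap IP of eIF4E-Flag cells, Cap IP of vector cells, input of eIF4E-Flag cells and input of vector cells, with 3 libraries in each. Cap IP is RNA recovered by immunoprecipitation for the cap, and input is total RNA of the same kind of cell. All cells were grown under standard conditions, and the labels name no interferon or infection. The labels state neither whether each stable line is a clone or a pool nor whether replicates came from different cultures. The p-values thus cover only the spread between these libraries, which may be technical.

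Interferons are secreted proteins that signal through cell surface receptors and JAK kinases to STAT transcription factors. A complex of STAT proteins with IRF9 binds the interferon-stimulated response element (ISRE) in the promoters of antiviral genes, while interferon gamma acts through the gamma-activated sequence (GAS). Among the 9 genes, IRF1 and IRF9 are transcription factors of this response. ISG15 is a ubiquitin-like protein that is attached to other proteins. OAS1 and OAS3 make oligoadenylates that activate RNase L, MX1 is a dynamin-like GTPase that blocks viruses, and IFI6 is a small membrane protein. IFIT1 binds foreign RNA that lacks the methylated cap of host mRNAs, and IFIT3 is its partner.

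Libraries were shallow, with 1206321 to 1813486 counts each, so that 3 counts stood for 1.19 to 3.15 CPM. CPM values here are counts scaled to library sizes adjusted by TMM, a normalization that aligns most genes between libraries. EIF4E itself had 15.4, 13.2 and 11.9 CPM in eIF4E input libraries, against 9.70, 4.81 and 6.32 CPM in vector input libraries, and did not pass the test (edgeR adjusted p = 0.231). Of 6 markers of bone and mesenchymal cells 4 were tested (VIM, SPARC, COL1A1 and RUNX2), while ALPL had 59 counts in all and COL1A2 had 2. Of 7 leukocyte markers CD68 had 257 counts and was tested, CD14 had 0, and the other 5 had 1 to 8. Of 5 epithelial markers KRT8, KRT18 and CDH1 were tested. Summed over the 5, the epithelial markers came to 2450 to 3980 CPM in eIF4E input libraries and 1360 to 2240 CPM in vector input libraries, mostly KRT8, and 0 of the 3 tested passed (edgeR). Their part in the values below was not tested. The sources used here do not give the strand setting of the counting. In the same file the row VIM-AS1 averaged 17369 counts per library and VIM, on the other strand, averaged 1289. BEST1 averaged 23099 counts, and FTH1, which lies opposite to its end, averaged 548. In both pairs the row opposite to VIM or FTH1 was the higher one. A value below is therefore that of the row with the gene's name, and it may hold mostly reads of the other strand. For the genes described here the strand of the reads was not tested.

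The promoters of 5 of the genes are shown because they carry the elements through which interferon acts on this family. The sequences are from RefSeq (GRCh38.p14), on the gene's own strand, and cover the 160 bases before the start of the transcript. Capitals mark matches on either strand to GAAANNGAAA, the core of the ISRE, in the first 4 lines and to TTCNNNGAA, the GAS, in the last. The matches in ISG15 overlap each other.
ISG15, chr1:1013337-1013496, plus strand: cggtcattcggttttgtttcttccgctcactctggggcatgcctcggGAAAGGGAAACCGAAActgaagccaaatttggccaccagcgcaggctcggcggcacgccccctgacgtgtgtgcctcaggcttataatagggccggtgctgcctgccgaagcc
OAS3, chr12:112938314-112938473, plus strand: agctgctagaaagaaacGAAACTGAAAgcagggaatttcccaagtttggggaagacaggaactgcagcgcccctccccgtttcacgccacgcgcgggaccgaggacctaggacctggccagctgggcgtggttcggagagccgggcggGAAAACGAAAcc
IFI6, chr1:27672193-27672352, minus strand: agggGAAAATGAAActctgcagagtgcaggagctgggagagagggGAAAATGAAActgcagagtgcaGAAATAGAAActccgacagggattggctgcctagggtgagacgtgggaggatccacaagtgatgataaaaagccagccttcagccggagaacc
IFIT1, chr10:89392463-89392622, plus strand: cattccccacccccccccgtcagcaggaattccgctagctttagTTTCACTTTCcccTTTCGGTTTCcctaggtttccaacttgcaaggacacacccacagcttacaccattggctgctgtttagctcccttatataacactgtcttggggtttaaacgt
IRF1, chr5:132490774-132490933, minus strand: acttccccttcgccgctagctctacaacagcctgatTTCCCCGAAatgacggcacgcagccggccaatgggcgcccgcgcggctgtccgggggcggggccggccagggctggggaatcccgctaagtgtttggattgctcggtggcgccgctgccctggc

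The 9 genes have 12 promoters in the RefSeq table, 3 of them for MX1 and 2 for IFIT3. Over the 250 bases before a start, a match to the ISRE core was found in 7 of the 12, those of ISG15, OAS3, IFI6 and IFIT1, both of IFIT3 and 1 of MX1. The same search found it in 3.02% of all 35116 RefSeq promoters. A GAS match was found in 4 of the 12 (OAS1, 1 of MX1, IRF1 and IRF9) and in 6.57% of all promoters. OAS3 had its matches at positions -143 and -12 from the start, and IFI6 had 3. A match is a description of the letters in this window only.

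The rows of all 9 genes were low. Over the 12 libraries, ISG15 had 246 counts, IRF1 213 and OAS3 130. IFIT1 and IFI6 followed with 69 and 67 counts, and IFIT3, MX1, IRF9 and OAS1 had 15, 11, 4 and 3. On a scale of CPM per kb of exon (GENCODE release 44, which may differ from the authors' annotation), ISG15 led in eIF4E input with 21.0 ± 15 and in vector input with 4.80 ± 1.72 (SD, n = 3 each). IFI6 came next with 2.59 ± 1.81 CPM per kb in eIF4E input and 2.92 ± 1.05 CPM per kb in vector input, below every ISG15 library of the same group. IRF1 stood at 1.17 ± 0.234 CPM per kb in eIF4E input and 0.854 ± 0.249 in vector input. The length used joins the exons of all transcripts of a gene: 0.87 kb for ISG15, 0.94 kb for IFI6, 12.26 kb for IRF1 and 18.05 kb for OAS3. In CPM without this division IRF1 was above IFI6, at means of 14.3 against 2.43 in eIF4E input and 10.5 against 2.74 in vector input. The order per kb thus depends on these lengths. IFIT1 had 0.535 ± 0.382 CPM per kb in eIF4E input, below every IRF1 library, and 0.786 ± 0.281 in vector input, where its libraries overlapped those of IRF1. OAS3 had 0.797 ± 0.206 CPM per kb in eIF4E input, where its libraries overlapped those of IFIT1 and of IRF1. In vector input its level was 0.231 ± 0.0219 CPM per kb, below all of their libraries. OAS1, IFIT3, MX1 and IRF9 lay at or under 0.2 CPM per kb in each input library, at counts of 0 to 2.

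**Figure D1:**
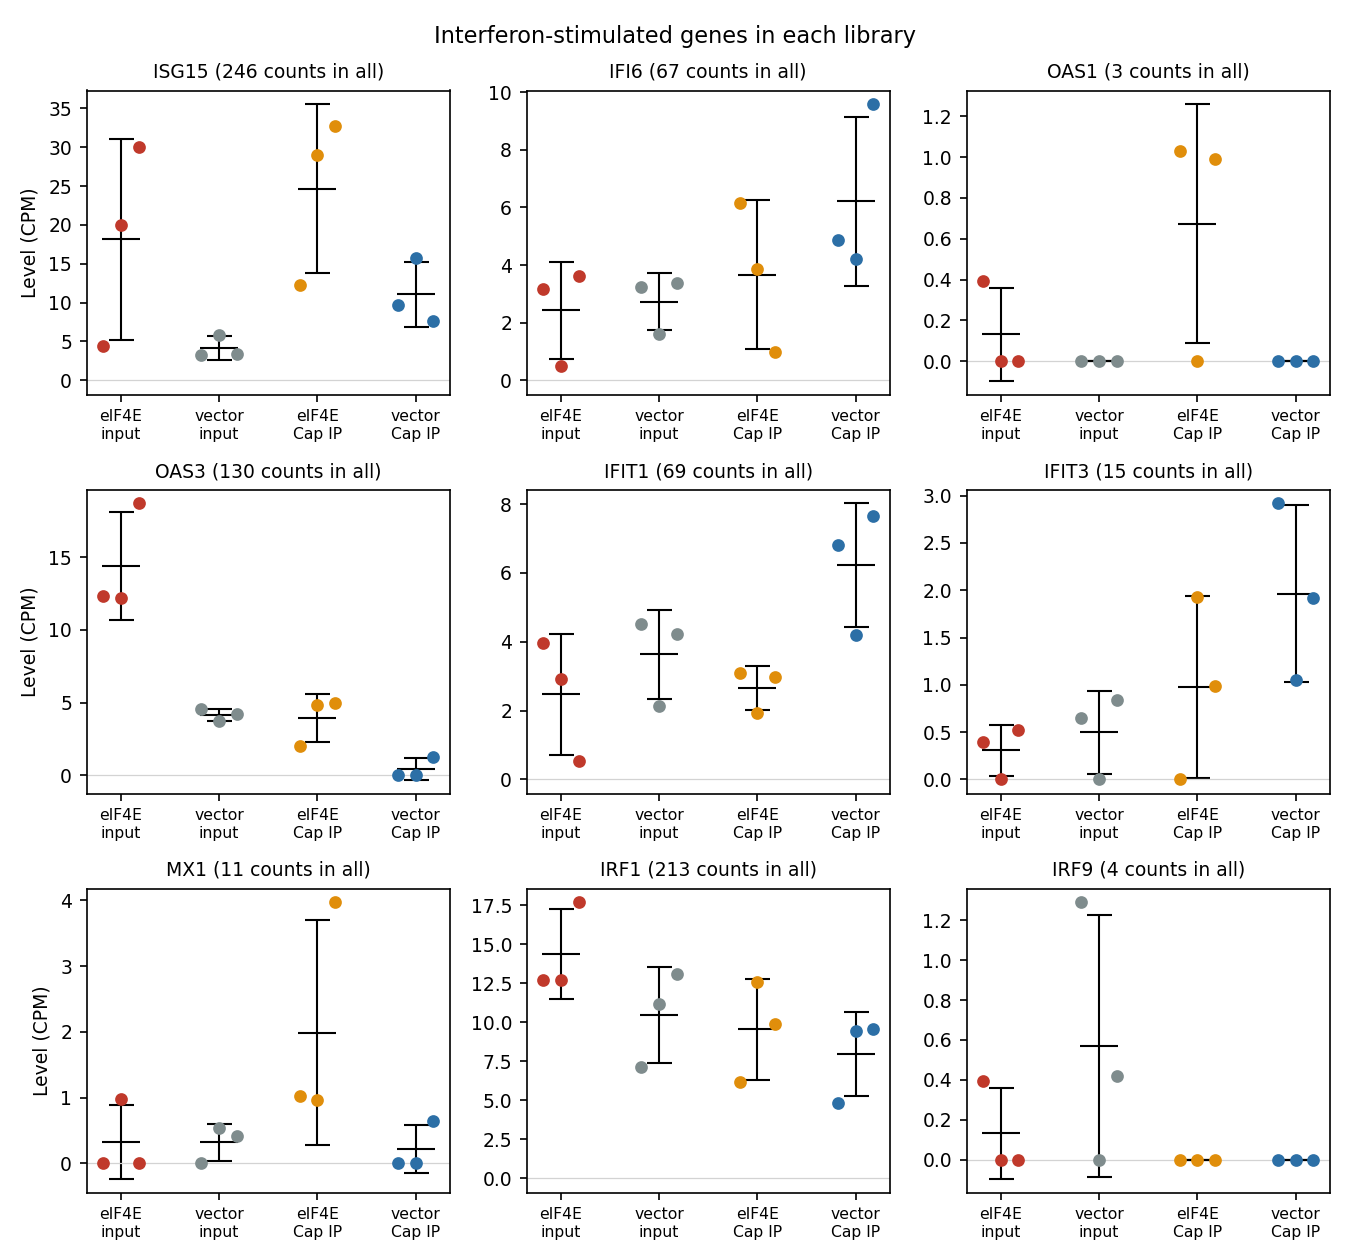
Level of each of the 9 genes in CPM (vertical axes, each with its own scale) in the 12 libraries, with replicates 1 to 3 from left to right in each group and the mean ± SD as lines. ISG15 is high in 2 of 3 eIF4E input libraries, OAS3 is above the vector libraries in all 3, and OAS1, IFIT3, MX1 and IRF9 rest on 15 counts or fewer in all.

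The input comparison asks how the amount of each RNA differed between cells with eIF4E-Flag and cells with the vector. OAS3 and ISG15 had the higher means in eIF4E input, by 3.41-fold and 4.24-fold, but neither passed the test over all 12460 genes. IRF1 was 1.34-fold higher in mean, within the spread of its libraries. Of the 3 tested genes 0 passed edgeR's quasi-likelihood test at a Benjamini-Hochberg adjusted p under 0.05, where 0.53% of all tested genes passed. At an unadjusted p under 0.05, 2 of the 3 were higher, where 5.32% of all tested genes were, and DESeq2 called 1 of the 3, ISG15, where it called 1.22% of all tested genes.

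OAS3, the largest of the oligoadenylate synthetases, had 12.3, 12.2 and 18.7 CPM in eIF4E input libraries, against 4.53, 3.74 and 4.22 CPM in vector input libraries. Behind these values stood 31, 25 and 36 counts in eIF4E libraries and 7, 7 and 10 counts in vector libraries. Every eIF4E library was above every vector library, as was so for 8.45% of all tested genes. The log2 change was 1.77 ± 0.49 (SE), with an edgeR adjusted p of 0.115. With no filter on low counts the same test gave 1.87 and an adjusted p of 0.0456 over 33699 genes, of which 318 were called.

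ISG15 had 4.35, 20.0 and 30.1 CPM in eIF4E input libraries, against 3.23, 5.88 and 3.37 CPM in vector input libraries. The counts were 11, 41 and 58 in eIF4E libraries and 5, 11 and 8 in vector libraries. Replicates 2 and 3 of the eIF4E group were high, while replicate 1 lay within the vector range, so the groups overlapped. In eIF4E cells and in vector cells alike, the title of replicate 1 begins differently from those of replicates 2 and 3, and the labels do not say what that marks. The log2 change was 2.09 ± 0.57 (SE), with an edgeR adjusted p of 0.115. Only 0.217% of all tested genes had a higher log2 change in input. The call of ISG15 depended on the setting, with an adjusted p of 0.0473 by DESeq2, 0.00114 by edgeR with no filter and 0.0142 by edgeR without eIF4E input replicate 1, where its log2 change was 2.58. In the same order, these fits called 152 of 12460, 318 of 33699 and 109 of 13094 tested genes. The other 4 alternatives that kept every library gave no call, nor did the other 5 fits without 1 library. Over the 6 alternatives that kept every library, the adjusted p of ISG15 ranged between 0.00114 and 0.163.

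IRF1, the transcription factor, had 12.7, 12.7 and 17.7 CPM in eIF4E input libraries, against 7.11, 11.2 and 13.1 CPM in vector input libraries. The groups overlapped, and the log2 change was 0.43 ± 0.38 (SE) with an edgeR adjusted p of 0.649. In bulk RNA, more cells with a transcript and more of it per cell cannot be told apart for any of these genes.

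**Figure D2:**
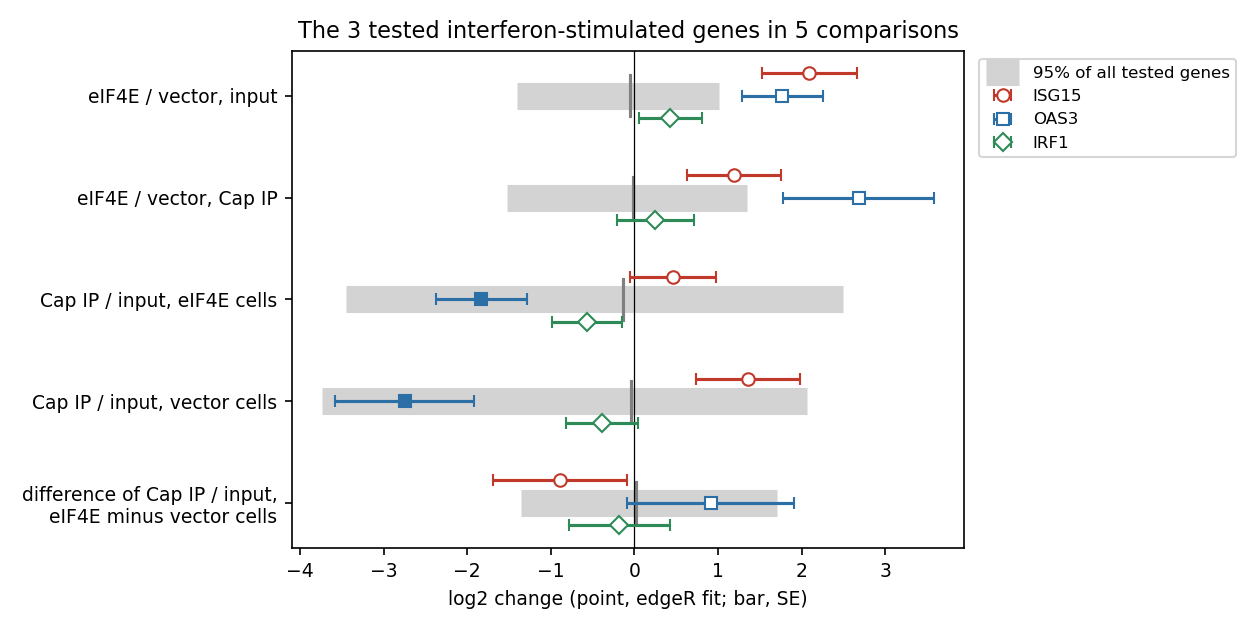
Log2 change of ISG15, OAS3 and IRF1 in the 5 comparisons (horizontal axis), as edgeR's estimate with its SE. Filled symbols passed an adjusted p under 0.05, open ones did not. The grey bars hold the middle 95% of all tested genes and the grey ticks their median. OAS3 in Cap IP over input is filled in both kinds of cell, and ISG15 and OAS3 lie beyond the grey bar in input.

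The 3 tested genes did not vary together as a group. Over the 12 libraries, log2 CPM of OAS3 and IRF1 had a Pearson r of 0.74, ISG15 and IRF1 of 0.25, and ISG15 and OAS3 of 0.15. These libraries share their scaling and differ between input and Cap IP, so the coefficients describe this set only. The gene most like ISG15 over the 12 libraries was MRPL20, a mitochondrial ribosomal protein gene, with an r of 0.955. For OAS3 it was TRIM35 with an r of 0.967, and for IRF1 it was HGH1 with an r of 0.953.

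MRPL20 lies 400.8 kb from ISG15 on chromosome 1, and the genes around each tested gene were therefore examined, after these values were seen. Positions were those of GENCODE release 44, matched by symbol or an older symbol for 81.2% of tested genes. Distances run between the lowest coordinates of the genes, whichever their strand. ISG15 lies at chr1:1001138-1014540 on the plus strand, near the end of the short arm. Of the 33 other tested genes within 1 Mb of it by this measure, 30 had a positive log2 change for eIF4E over vector in input. Their median was 1.13, with values between -0.05 and 2.01, where all tested genes had a median of -0.05 and 46.6% were positive. None of the 33 passed the test (edgeR, adjusted p under 0.05), where 0.53% of all tested genes did. For 5 of the 33 every eIF4E library was above every vector library, as was so for 8.45% of all tested genes. ATAD3B, a mitochondrial ATPase gene, had a log2 change of 2.01. KLHL17 had 1.91, and AGRN, 19.0 kb from ISG15 between lowest coordinates, had 1.52. AGRN encodes the matrix proteoglycan agrin.

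The neighbours followed ISG15 library by library. Against the mean of the 3 vector input libraries, ISG15 stood at log2 differences of 0.08, 2.01 and 2.56 in eIF4E input replicates 1, 2 and 3. The median of its 33 neighbours stood at 0.19, 1.16 and 1.75 in the same libraries. In the vector input libraries ISG15 stood at -0.24, 0.43 and -0.19, and its neighbours at -0.45, 0.34 and 0.08. Both were thus near the vector level in eIF4E replicate 1 and above it in replicates 2 and 3. Of the 33 neighbours, 22, 30 and 33 were above the vector mean in these eIF4E libraries.

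**Figure D3:**
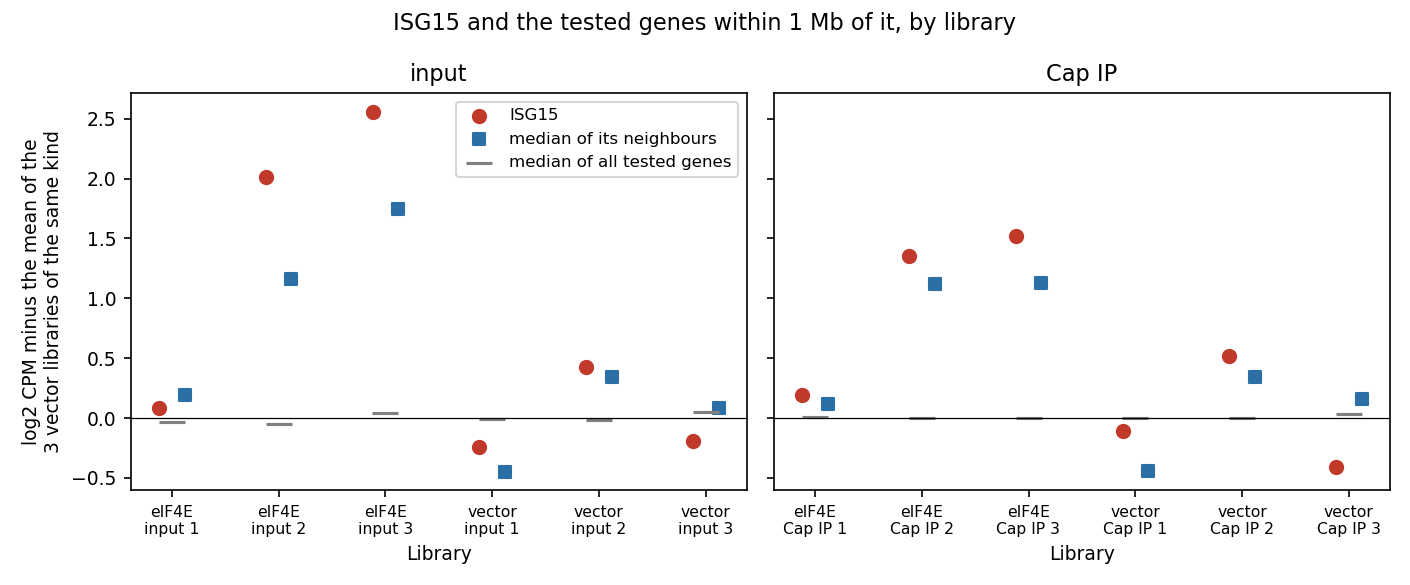
Log2 CPM of ISG15 (circles) and the median of its 33 neighbours (squares) minus the mean of the 3 vector libraries of the same kind, for each input and Cap IP library (horizontal axis). Grey ticks show the median of all tested genes. Circles and squares are both high in eIF4E replicates 2 and 3, in input and in Cap IP, and both near 0 in eIF4E replicate 1.

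Of 327 windows of 2 Mb that held at least 10 tested genes, the one with ISG15 had the highest median log2 change in input, 1.13 over 34 genes. The next highest median was 0.78, and 95% of windows lay between -0.52 and 0.58. The adjoining window, from 2 to 4 Mb, had a median of 0.74 with 19 of 19 genes positive. From 6 to 8 Mb the median was 0.06, with 9 of 18 genes positive. The exons of ISG15 have a GC content of 63.4%, in the highest 10% of genes, and the median log2 change of those genes in input was 0.22. The 14 neighbours outside them had a median of 0.95. The share of ISG15's change that its position accounts for was not tested.

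OAS3 and IRF1 did not stand among neighbours of this kind. OAS3 lies at chr12:112938051-112976460 on the plus strand, and the 14 tested genes within 1 Mb had a median log2 change of 0.19 in input, with 9 positive and a highest value of 0.76. The 16 neighbours of IRF1, at chr5:132440440-132508719 on the minus strand, had a median of -0.03 with 8 positive. Around IFI6, which lies at chr1:27666064-27672212 and was not itself tested, 23 of 31 neighbours were positive with a median of 0.31.

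**Figure D4:**
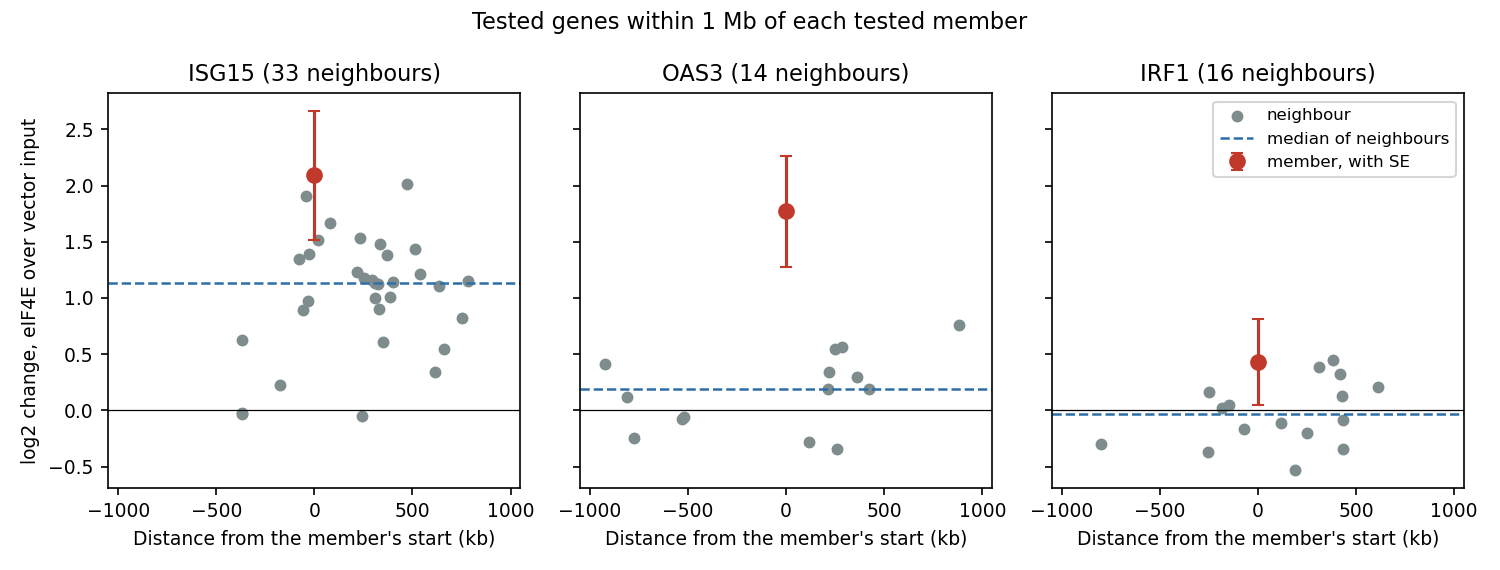
Log2 change of eIF4E over vector in input (vertical axis) for ISG15, OAS3 and IRF1 (large points with SE) and for the tested genes within 1 Mb. The horizontal axis is the distance in kb between lowest coordinates, labelled as distance from the start. The dashed line is the neighbours' median. It is 1.13 around ISG15, 0.19 around OAS3 and -0.03 around IRF1.

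The same contrast within Cap IP asks how much of each RNA was recovered with the cap in the 2 kinds of cell. OAS3 and ISG15 again had the higher means in eIF4E cells, and 0 of the 3 tested genes passed edgeR's test at an adjusted p under 0.05, where 0.225% of all tested genes did. At an unadjusted p under 0.05 there were 2 higher, OAS3 and ISG15, where 4.15% of all tested genes were. DESeq2 called 0 of the 3 and 0.57% of all tested genes. ISG15 had 12.3, 29.0 and 32.7 CPM in eIF4E Cap IP libraries, against 9.72, 15.8 and 7.66 CPM in vector Cap IP libraries. Its replicates 2 and 3 in eIF4E cells were again the high ones and replicate 1 lay within the vector range. The log2 change was 1.19 ± 0.56 (SE), with an edgeR adjusted p of 0.52. With the tag that eIF4E and vector titles share as a block, it was 1.17 with an edgeR adjusted p of 0.131. That fit called 222 of 8514 tested genes. The 33 neighbours of ISG15 had a median of 0.72 in this comparison, with 30 positive, and the window of ISG15 ranked 2 of 327.

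OAS3 had 2, 5 and 5 counts in eIF4E Cap IP libraries, against 0, 0 and 2 counts in vector Cap IP libraries. That is 2.05, 4.83 and 4.96 CPM in eIF4E libraries, against 0, 0 and 1.28 CPM in vector libraries. The groups did not overlap, as held in this direction for 6.16% of all tested genes. From 12 counts against 2, the ratio was 7.05, with a 95% interval of 1.57 to 64.8 that covers counting error only. The edgeR log2 change was 2.68 ± 0.90 (SE), with an adjusted p of 0.334. Without vector Cap IP replicate 3, the one library of that group with any count, the fitted value was 5.68 and has no bound. IRF1 had 6.16, 12.6 and 9.92 CPM in eIF4E Cap IP libraries, against 4.86, 9.46 and 9.58 CPM in vector Cap IP libraries. The groups overlapped, with a log2 change of 0.25 ± 0.46 (SE) and an edgeR adjusted p of 0.914.

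Cap IP over input asks which RNAs were enriched with the cap. OAS3 fell in Cap IP in both kinds of cell, relative to most genes. Its Cap IP libraries of eIF4E cells had 2.05, 4.83 and 4.96 CPM, against 12.3, 12.2 and 18.7 CPM in their inputs. The log2 change was -1.83 ± 0.54 (SE) with an edgeR adjusted p of 0.00944, and stayed under 0.05 in all 6 fits that left out 1 library (0.0165 to 0.0498). In vector cells OAS3 had 0, 0 and 1.28 CPM in Cap IP, against 4.53, 3.74 and 4.22 CPM in input. There the log2 change was -2.75 ± 0.83 (SE) with an edgeR adjusted p of 0.0131. From 2 counts against 24 the ratio was 0.136, with a 95% counting interval of 0.0156 to 0.548. The call was lost without vector Cap IP replicate 1 (log2 change -2.29, edgeR adjusted p = 0.0521). The 14 neighbours of OAS3 within 1 Mb had a median of -0.75 in eIF4E cells, with 12 negative and 2 positive. In vector cells their median was -0.70, with 11 negative and 3 positive. Genes in the tenth by GC content that holds OAS3 had medians of -0.61 in eIF4E cells and -0.38 in vector cells. The part of either in the change of OAS3 was not tested. OAS3 was the only one of the 3 tested genes called in either kind of cell. In eIF4E cells 23.3% of all tested genes were called lower and 45.1% in either direction, and in vector cells 21% were called lower and 39.5% in either direction, so that 1 call among 3 genes is near the background.

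ISG15 was higher in Cap IP than in input in each of the 3 vector pairs, and its fitted change did not pass. It had 9.72, 15.8 and 7.66 CPM in vector Cap IP libraries, against 3.23, 5.88 and 3.37 CPM in vector input libraries. Groups without overlap in this direction were found for 22.7% of all tested genes. The log2 change was 1.36 ± 0.62 (SE), with an edgeR adjusted p of 0.0897. With the title stem that pairs Cap IP and input as a block, it was 1.34 with an edgeR adjusted p of 0.0135 and passed. That fit called 6041 of 10842 tested genes, 2886 of them higher. In eIF4E cells ISG15 had 12.3, 29.0 and 32.7 CPM in Cap IP libraries, against 4.35, 20.0 and 30.1 CPM in input libraries. The log2 Cap IP over input per pair, with a pseudocount of 2 CPM, was 1.17, 0.49 and 0.11 in eIF4E replicates 1 to 3, against 1.16, 1.17 and 0.85 in vector replicates 1 to 3. Pairs were formed by title stem, and residuals around the group means correlated within a stem at only 0.08 and 0.11 in eIF4E replicates 2 and 3. Replicate 1 of the eIF4E cells, the one with little ISG15 in input, had a ratio equal to the highest of the vector pairs. The edgeR log2 change in eIF4E cells was 0.46 ± 0.51 (SE) with an adjusted p of 0.475, and without eIF4E input replicate 1 it was -0.03.

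IRF1 was lower in mean in Cap IP than in input in both kinds of cell and did not pass. The edgeR log2 change was -0.57 ± 0.42 (SE) with an adjusted p of 0.271 in eIF4E cells, and -0.39 ± 0.43 (SE) with an adjusted p of 0.49 in vector cells. The Cap IP libraries of eIF4E cells were all below their input libraries, as held for 29.5% of all tested genes. Genes in the tenth by GC content that holds IRF1 had medians of -0.61 in eIF4E cells and -0.38 in vector cells. The 16 neighbours of IRF1 had medians of 0.21 and 0.11, in the same order. The part of either in the change of IRF1 was not tested. Directions in Cap IP over input are relative to the scaling. With total counts as library sizes, the median of all tested genes moved to -0.99 in eIF4E cells and -0.78 in vector cells, against -0.13 and -0.04 with TMM. On that scale IRF1 was called lower in eIF4E cells (-1.40, edgeR adjusted p = 0.0109) and in vector cells (-1.13, edgeR adjusted p = 0.0437), and ISG15 in eIF4E cells turned to -0.30. Of all 12460 tested genes, 5866 were called lower on that scale in eIF4E cells and 5013 in vector cells.

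The difference of Cap IP over input between eIF4E and vector cells asks whether enrichment with the cap changed with eIF4E. None of the 3 genes passed. The difference was 0.91 ± 1.00 (SE) for OAS3, -0.89 ± 0.80 for ISG15 and -0.18 ± 0.60 for IRF1, on the log2 scale, with edgeR adjusted p of 0.904, 0.888 and 0.972. Among all 12460 tested genes 0 passed, 0% of them, by edgeR without a block and by DESeq2. With the title stem as a block, edgeR called 51 of the 12460, all higher. With no filter on low counts it called 3 of 33699, all higher. OAS3, ISG15 and IRF1 were not called in either fit. At an unadjusted p under 0.05, edgeR without a block gave 467 higher and 261 lower genes, and none of these was OAS3, ISG15 or IRF1. With standard errors of 0.60 to 1.00, a 2-fold difference in enrichment was not detectable for these genes at this depth.

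The remaining 6 genes did not pass the filter on low counts and are given as values. IFIT1 had 3.08, 1.93 and 2.97 CPM in eIF4E Cap IP libraries, against 6.81, 4.2 and 7.66 CPM in vector Cap IP libraries. All its eIF4E libraries were below all vector libraries, as held for 7.39% of tested genes, and from 8 counts against 23 the ratio was 0.409 with a 95% counting interval of 0.158 to 0.946. In input IFIT1 had 3.95, 2.93 and 0.519 CPM in eIF4E libraries, against 4.53, 2.14 and 4.22 CPM in vector libraries, and the groups overlapped. A fit with no filter gave IFIT1 a log2 change of -1.25 in Cap IP, with an edgeR adjusted p of 0.933, and -0.38 in input, with 0.892.

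IFI6 had 3.16, 0.489 and 3.63 CPM in eIF4E input libraries, against 3.23, 1.6 and 3.37 CPM in vector input libraries, from 16 counts in each group. Its groups overlapped. In Cap IP, IFI6 had 6.16, 3.86 and 0.992 CPM in eIF4E libraries, against 4.86, 4.2 and 9.58 CPM in vector libraries. In vector cells IFI6 was higher in every Cap IP library than in any input library, as 22.7% of tested genes were, at 24 against 16 counts and a ratio of 2.45 with a 95% counting interval of 1.25 to 4.93. A fit with no filter gave IFI6 a log2 change of 1.17 in that comparison, with an edgeR adjusted p of 0.276, and no call.

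IFIT3, the partner of IFIT1, had at most 3 counts in a library, and 7 counts over the vector Cap IP group were its most. MX1 had 1, 1 and 4 counts in eIF4E Cap IP libraries, against 0, 0 and 1 in vector Cap IP libraries, for a ratio of 7.05 with a 95% counting interval of 0.855 to 324. OAS1 had 2 counts in eIF4E Cap IP and 1 count in eIF4E input, and 0 counts in both vector groups. A count of 0 allows a group level of up to 0.518 CPM in vector input and 0.846 CPM in vector Cap IP. IRF9, the DNA-binding subunit of the STAT complex, had 1 count in eIF4E input, 3 in vector input and 0 in both Cap IP groups. In the fit with no filter none of these 4 genes was called in any comparison by edgeR. Differences of these genes were not detectable at this depth.

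Of the pathway around these genes, 0 of the listed genes were called in either eIF4E against vector comparison, by edgeR at an adjusted p under 0.05. Of 22 interferon genes 19 had no count in any library, and 0 could be tested. Of 6 receptor genes 2 were tested, IFNGR2 and IL10RB, each with a log2 change of -0.03 in input. Among JAK and STAT genes 4 of 5 were tested, with changes between -0.41 for JAK1 and 0.61 for TYK2. Among 7 other interferon regulatory factors 3 were tested, at 0.39 for IRF3, 0.20 for IRF7 and -0.71 for IRF5. Of 16 sensors and adaptors of viral RNA and DNA 8 were tested, between -0.75 for DDX58, which encodes the RNA sensor RIG-I, and 0.83 for the adaptor gene TICAM1. Other antiviral genes of the response, 19 of 47 tested, had a median of -0.05 in input, the same as all genes, with 8 positive and 11 negative. The most negative was NMI, which binds STAT proteins, at -1.58 ± 0.62 (SE) with an edgeR adjusted p of 0.267. Of 14 tested genes of antigen presentation and interferon gamma, 11 were positive with a median of 0.42, led by the proteasome activator PSME2 at 0.95 ± 0.30 (SE, edgeR adjusted p = 0.168). TRIM25, a ligase that conjugates ISG15, had 0.96 ± 0.30 (SE, edgeR adjusted p = 0.164) in input, and UBE2L6, the conjugating enzyme, had 0.19. Of the negative regulators 5 of 8 were tested, and the phosphatase gene PTPN1 had 0.94 ± 0.30 (SE, edgeR adjusted p = 0.17).

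**Figure D5:**
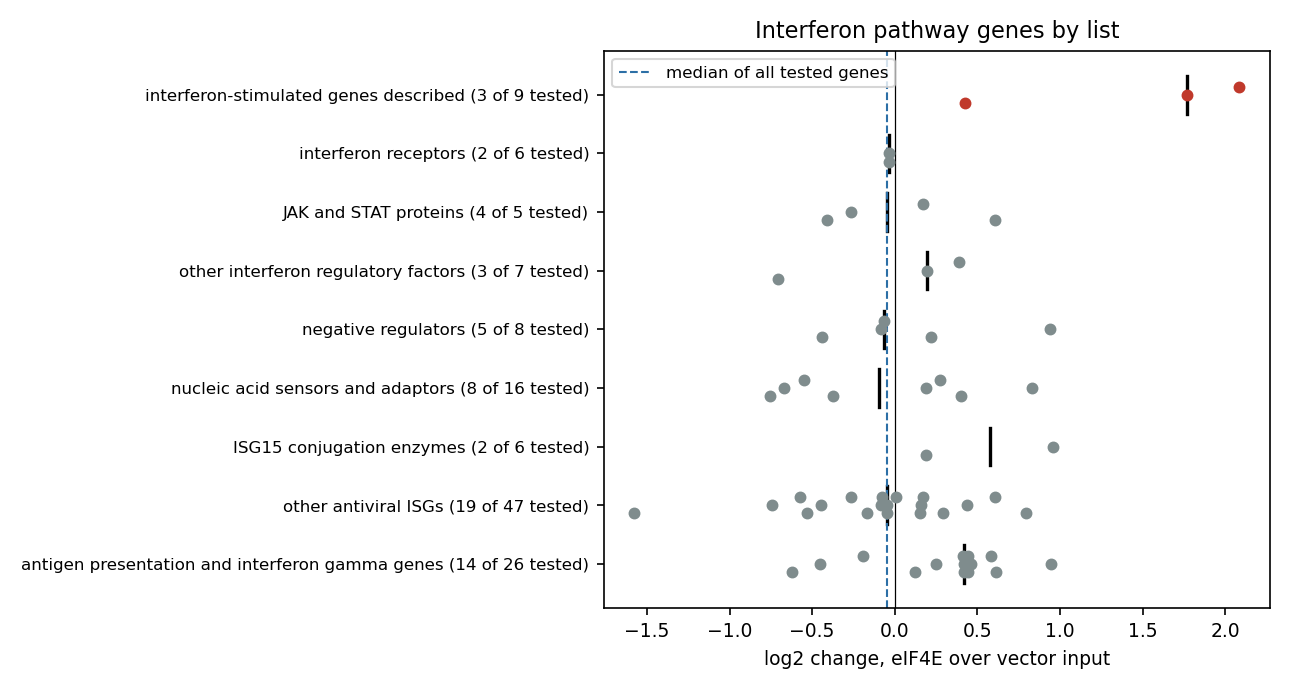
Log2 change of eIF4E over vector in input (horizontal axis) for every tested gene of each list, with the list's median as a black tick and the median of all tested genes as a dashed line. ISG15 and OAS3, in the top row, lie above every gene of the other lists, and the other antiviral genes centre on the median of all genes.

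In Cap IP over input, where calls are common, the rows of several signalling genes fell in both kinds of cell. The edgeR log2 changes in eIF4E cells were -2.15 ± 0.57 (SE, adjusted p = 0.00468) for STAT2, -1.76 ± 0.36 (0.000657) for the kinase gene TYK2 and -1.30 ± 0.40 (0.0128) for JAK1. In vector cells they were -1.84, -1.26 and -1.15, all called. The transcription factor IRF7 had -3.58 ± 0.62 (SE, edgeR adjusted p = 0.000139) in eIF4E cells and -3.15 in vector cells. MAVS, the mitochondrial adaptor of RNA sensing, had -3.11 and -2.11, and ADAR, the RNA-editing enzyme, had -2.06 and -1.91, in eIF4E and in vector cells. TRIM25 had -1.84 and -1.44 in the same order of cells, all called lower by edgeR. The cap methyltransferase gene CMTR1, itself induced by interferon, had -1.55 and -1.84, again called in both. HELZ2, a helicase gene, had -3.00 and -2.67. IRF5 was called lower as well, with 0 counts in Cap IP against 24 in input of eIF4E cells and 3 against 35 in vector cells. Called higher in both kinds of cell were NMI at 3.04 and 1.86, PARP9 at 1.62 and 1.2, and MB21D1, the DNA sensor cGAS, at 2.29 and 1.42. Of the 19 other antiviral genes, 2 were called higher and 3 lower in eIF4E cells, and 2 higher and 5 lower in vector cells. Of all tested genes 21.9% were called higher and 23.3% lower in eIF4E cells, and 18.5% higher and 21% lower in vector cells. The remaining calls of that list were LGALS3BP in eIF4E cells (-1.18 ± 0.32, SE, edgeR adjusted p = 0.00546) and, in vector cells, TRIM14 (-1.91), SAMHD1 (-1.98) and PML (-1.44).

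Other genes of the pathway were called in Cap IP over input as follows, all by edgeR at an adjusted p under 0.05. The phosphatase gene PTPN2 was higher, at 1.46 ± 0.36 (SE) in eIF4E cells and 1.5 ± 0.36 in vector cells. In eIF4E cells PIAS1, a SUMO ligase gene, was higher at 0.90 and SOCS3, an inhibitor of JAK signalling, was lower at -1.25. TICAM1 was lower at -1.67 in eIF4E cells. DDX58 at -2.66 and EIF2AK2, the RNA-activated kinase PKR, at -1.49 were lower in vector cells. Of the 14 antigen presentation genes 3 were called higher in each kind of cell, near the background of 21.9% of all tested genes in eIF4E cells and 18.5% in vector cells. They were HLA-F (1.73), TAP1 (1.00) and CIITA (1.35) in eIF4E cells, and PSME1 (1.28), HLA-C (0.84) and CIITA (0.83) in vector cells. All 14 had a positive log2 change in vector cells, with a median of 0.69, where all tested genes had a median of -0.04. In eIF4E cells 8 of the 14 were positive, with a median of 0.07 against -0.13 for all tested genes. The difference between the 2 kinds of cell had a median of -0.63 over the 14, against 0.02 over all tested genes, and 0 of them passed edgeR's test of it. Among markers of cell type, COL1A1 was called lower in both kinds of cell, at -2.39 and -1.91. KRT8 (1.14 and 1.36) and CD68 (1.64 and 1.72) were called higher in both, and CDH1 (1.41) in vector cells, in the order eIF4E cells and vector cells.

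All 9 genes share their locus with a gene on the other strand. LIPA, a lysosomal lipase gene with 48 counts in all libraries, overlaps IFIT1 and IFIT3, including exons of IFIT3. TMPRSS2, a serine protease gene with 5 counts, overlaps exons of MX1. The antisense gene IRF1-AS1 overlaps exons of IRF1, and unnamed genes on the other strand overlap exons of ISG15, OAS1, MX1, IRF1 and IRF9. Others overlap OAS3 and IFI6 outside their exons. On the same strand, LINC02574 overlaps exons of IFI6 and an unnamed gene overlaps exons of IRF9. IFIT6P, with 1 count, overlaps IFIT3 on the same strand outside exons. For IRF1-AS1, LINC02574 and the unnamed genes no row of the file was matched. Without the strand setting, reads of pairs on opposite strands cannot be told apart, and the values of all 9 genes are uncertain to that extent. The strand setting would not separate the pairs on the same strand.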

How the data were processed

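The deposited values are whole-number counts of reads for each gene name, which the authors did not normalize. Per the submitters' processing notes, the tools were STAR 2.5.1b, featureCounts 1.4.5-p1 and DESeq2, with GRCh38.p5. Per the labels' protocols, libraries were made with the KAPA RNA HyperPrep with RiboErase kit, sequenced single-end. Strand setting and annotation: not given in the sources used here.

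Tests used edgeR 4.0.16 (with limma 3.58.1) under R 4.3.3. filterByExpr kept 12460 genes (3 of the 9), TMM scaled them, and a quasi-likelihood fit over 12 libraries with a mean per group gave 5 comparisons. Calls were made at a Benjamini-Hochberg adjusted p under 0.05 over all tested genes. Log2 CPM had a prior count of 2. Counting intervals of ratios are exact 95% intervals of pooled group counts and, like the floor of 3 counts, cover counting error only. The procedure was tested on simulated data.

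The 9 genes and the lists were chosen with earlier results of these data known. All 9 are named. Of other lists, genes called in a comparison and the 3 with the smallest p in input could be named, along with the most alike gene by Pearson r. The neighbours named were chosen after their values were seen. One gene of the pathway is not reported here. Positions and exon lengths came from GENCODE release 44 and promoters from RefSeq, joined in Python 3.11.15 (SciPy 1.17.1, NumPy 2.4.6, pandas 2.3.3), and figures were drawn with matplotlib 3.10.9.

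Alternatives were DESeq2 1.42.0, its size factors, total counts, no filter, only the groups compared, a replicate block and each library left out. Replicates were no copies of each other (chi-square of 5.1 to 18 per degree of freedom). Input and Cap IP titles share a stem. Correlations of residuals within a stem were 0.43, 0.27 and 0.44 in vector cells, so these were taken as pairs there, and 0.35, 0.08 and 0.11 in eIF4E cells. eIF4E and vector titles share a tag, with correlations of 0.20, 0.16 and 0.30 in Cap IP, taken as pairs, and 0.18, 0.01 and -0.04 in input. The main fit used no pairs, and pairs entered only the fits with a replicate block.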

Additional observations from a re-analysis of the deposited data

How the results depend on the processing

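For eIF4E over vector in input, the 0 genes called among the 3 became 1 with DESeq2 (ISG15) and 2 with no filter on low counts (ISG15 and OAS3). They became 0 to 1 when each library was left out, with the 1 (ISG15) without eIF4E input replicate 1. Over all tested genes the main fit called 66 of 12460, DESeq2 called 152 of 12460 and the fit with no filter called 318 of 33699. Without eIF4E input replicate 1, 109 of 13094 were called. With each library left out, the log2 change of ISG15 ranged from 1.52 to 2.58 and that of OAS3 from 1.55 to 1.89. DESeq2 gave OAS3 no adjusted p there. For Cap IP over input, total counts as library sizes called 2 genes in place of 1 in eIF4E cells and in vector cells, adding IRF1. Over all 12460 tested genes that setting called 6967 in place of 5625 in eIF4E cells and 5751 in place of 4921 in vector cells. In vector cells the count among the 3 genes was 0 to 1 with each library left out. ISG15 in eIF4E cells turned to -0.30 with total counts and to -0.03 without eIF4E input replicate 1, in a range of -0.03 to 1.04 with each library left out. The difference of Cap IP over input for IRF1 turned to 0.01 without vector input replicate 1 and to 0.03 without eIF4E Cap IP replicate 1, in a range of -0.46 to 0.03, and was never called. The cause of these changes was not tested. OAS3 for Cap IP over input in vector cells reached -5.71, and its difference 3.87, without vector Cap IP replicate 3, where the group has no count.

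With a replicate block, the paired fit called ISG15 for Cap IP over input in vector cells (1.34, edgeR adjusted p = 0.0135), as did the fit of only the groups compared (1.33, edgeR adjusted p = 0.0352). Of all 10842 genes tested there, the paired fit called 6041 and the fit of only the groups compared called 4424. OAS3 did not pass the filter in either fit there, nor in Cap IP of eIF4E over vector, so it has no value in them. The block changed no other call of ISG15, OAS3 or IRF1. Of all the settings tried, 178 gave the same direction and side of the threshold, 8 gained a call, 1 lost one and 4 reversed. At 0 to 58 counts per library, depth limits every gene described.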
